A study of Mus musculus with 50 samples.

Results

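Messenger RNA levels of 10 genes of the tumour necrosis factor (TNF), interleukin (IL)-12, IL-23, IL-27 and IL-10 systems were examined in mouse macrophages and in amputated mouse digits. The genes were taken by name from the 21954 genes of the expression tables. They comprise the cytokine genes Tnf, Il12a, Il12b, Il23a, Il27 and Il10 and the receptor genes Tnfrsf1a, Tnfrsf1b, Il23r and Il10ra.

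TNF is made as a membrane protein that is cut from the cell surface, and it signals through 2 receptors. TNFR1, encoded by Tnfrsf1a, is present on most cell types and drives NF-kB activation or cell death, and TNFR2, encoded by Tnfrsf1b, is found mainly on immune and endothelial cells. IL-12 and IL-23 are dimers that share the p40 subunit from Il12b, which pairs with p35 from Il12a to form IL-12 and with p19 from Il23a to form IL-23. IL-27 pairs the product of Il27 with that of Ebi3. IL-10, which restrains macrophage activation, binds a receptor made of the products of Il10ra and Il10rb. In wounds, TNF and the IL-12 family are known as products of activated myeloid cells, and IL-10 as their brake.

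The macrophages were grown from bone marrow of young adult female C57BL/6 mice. M0 cells had basal medium alone. For 24 hours M1 cells were given interferon-gamma with lipopolysaccharide (LPS) and M2 cells were given IL-4, with 3 libraries per state. The M0 labels say baseline and give no time. The digits came from young adult male C57BL/6 mice after amputation of the terminal phalanx of hindlimb digit 3. Non-regenerative digits (29, labelled levels of 60% to 80%) were sampled on 9 occasions from 0 hours through 21 days, 3 digits each and 5 on day 7. The class is meant for amputations that exceed a level of 67%, but 12 of these 29 digits are labelled at or below that level and 17 above it, and all were kept in the group their labels name. Intermediate digits (12, labelled levels of 41% to 55%) were sampled on 4 of these occasions (0 hours, 24 hours, 14 days, 21 days), 3 digits each. Each library was made from polyadenylated RNA. The labels do not say whether the 3 libraries of a macrophage state came from separate mice, so p-values there measure only the spread between those libraries. The animal marks, dates and sides in the digit labels repeat between digits, also across times. Whether digits share an animal cannot be read from them, and the p-values in digits treat each digit as separate. The digits are whole wound beds, in which fewer cells of a type and less RNA per cell cannot be told apart.

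The macrophage libraries held 15683424 to 27904773 expected counts (the reads assigned to genes) and the digits 1468749 to 13011782, so a gene seen 0 times could still be present at up to 3 counts of those totals. Dates in the digit labels form an earlier period with 24 digits and a later one with 17. All digits at 3 and 12 hours were of the earlier period, and all non-regenerative digits at 21 days of the later one. Non-regenerative replicate 2 at 14 days stood apart, with normalized TPM summing to 3362791. It was kept. All 7 macrophage markers were detected in every macrophage state, with mean sums of 21670, 11151 and 10740 normalized TPM in M0, M1 and M2. Of the keratinocyte markers Krt5, Krt14 and Krt1 were at 0 in M0 and M1. Markers of other cell types were present. Neutrophil markers had mean sums of 376, 172 and 442 normalized TPM in M0, M1 and M2, and fibroblast markers 339, 211 and 480. For T and NK cell markers the sums were 40.9, 6.31 and 7.63, and for B cell markers 12.99, 1.73 and 3.51. Dendritic and Langerhans cell markers were instead highest in M1, with sums of 6.63, 55.6 and 8.27. Whether other cells or the macrophages themselves gave these levels was not tested.

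Promoter sequences are given as background, and their part in the changes described here was not tested. RefSeq promoters (GRCm38.p6) were found for 6 of the 10 genes, with 7 starts. The 250 bases before the start are printed for Tnf, Tnfrsf1b, Il12b and Il23r, because these genes moved strongly together in M1 macrophages. They lie at chr17:35202008-35202257 (minus strand), chr4:145246871-145247120 (minus strand), chr11:44399813-44400062 (plus strand) and chr6:67491856-67492105 (minus strand). Capitals mark a match to an interferon-stimulated response element (ISRE, GAAANNGAAA) or a TATA box (TATAAA).
Tnf: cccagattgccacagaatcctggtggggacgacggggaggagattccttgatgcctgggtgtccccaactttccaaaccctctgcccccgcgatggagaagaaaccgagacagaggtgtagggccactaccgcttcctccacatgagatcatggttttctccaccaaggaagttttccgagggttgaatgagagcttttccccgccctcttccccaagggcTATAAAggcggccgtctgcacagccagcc
Tnfrsf1b: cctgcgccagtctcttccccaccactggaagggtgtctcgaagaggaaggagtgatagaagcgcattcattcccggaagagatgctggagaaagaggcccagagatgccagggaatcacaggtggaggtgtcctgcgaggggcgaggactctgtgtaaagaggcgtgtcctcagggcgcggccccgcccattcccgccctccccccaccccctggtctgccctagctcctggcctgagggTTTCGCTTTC
Il12b: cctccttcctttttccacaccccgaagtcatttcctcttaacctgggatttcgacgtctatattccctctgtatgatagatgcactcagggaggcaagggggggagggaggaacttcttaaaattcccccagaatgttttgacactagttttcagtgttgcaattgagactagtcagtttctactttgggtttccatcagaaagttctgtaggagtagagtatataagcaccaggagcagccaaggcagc
Il23r: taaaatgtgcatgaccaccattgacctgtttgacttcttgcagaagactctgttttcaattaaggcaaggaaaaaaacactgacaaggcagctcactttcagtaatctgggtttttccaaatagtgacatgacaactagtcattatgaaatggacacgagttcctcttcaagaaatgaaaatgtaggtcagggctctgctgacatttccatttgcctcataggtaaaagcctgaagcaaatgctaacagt

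The motifs ISRE, TATA box, AP-1 and NF-kB were searched on both strands of these 250 bases, with overlaps between motifs allowed. The Tnf promoter held a TATA box at positions -29 to -24 from the start, as did 12.3% of the 32536 different promoters searched. The Tnfrsf1b promoter held an ISRE at positions -10 to -1 on the opposite strand, found in 2.98% of promoters. No match was found in the printed stretches of Il12b and Il23r, nor at the starts of Tnfrsf1a and Il12a. The AP-1 site (TGANTCA) and the NF-kB consensus, held by 6.73% and 3.92% of promoters, had no match in any of the 7 promoters.

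In M1 macrophages every gene of the set that could be tested was higher than in M0. Tnf rose about 24-fold, its receptor Tnfrsf1b about 10-fold, the p40 subunit Il12b about 61-fold, Il27 about 85-fold and Il10 about 18-fold. Il23r went from 0 counts in M0 to at least 294 in M1. Tnfrsf1a and Il10ra rose the least, by 2.79-fold and 2.10-fold. The call rests on edgeR's quasi-likelihood test with a Benjamini-Hochberg adjusted p below 0.05 and a change of more than 2-fold. By this rule 7 of 7 tested genes were higher, beside 20.1% of all 12939 genes tested that were called higher and 26.0% that were called lower. Il23r was called too, but it passed the filter on low counts only through its M1 libraries, so it is not counted. Il12a and Il23a were too low to be tested.

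Tnf (ENSMUSG00000024401, chromosome 17, 35199381 to 35202007 in GRCm38) had normalized TPM of 15.6, 11.96 and 14.7 in M0, of 329, 350 and 323 in M1 and of 38.0, 29.02 and 25.6 in M2. Normalized TPM is a level per transcript length, scaled between libraries. The 3 states did not overlap, with M1 highest and M0 lowest. The log2 fold change was 4.57 ± 0.07 (SE) in M1 against M0 (edgeR, adjusted p = 6.71e-14) and 1.067 ± 0.14 in M2 against M0 (edgeR, adjusted p = 4.69e-05). The M2 value stood close to the 2-fold limit and fell below it without M2 replicate 1 (0.88) or without M0 replicate 2 (0.97).

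The TNF receptors responded unequally. Tnfrsf1b (ENSMUSG00000028599, chromosome 4, 145213463 to 145246870) had normalized TPM of 217, 218 and 227 in M0, of 2314, 2228 and 2222 in M1 and of 233, 206 and 219 in M2. Its M1 libraries lay far above the others, while M0 and M2 overlapped. The log2 fold change was 3.36 ± 0.05 in M1 (edgeR, adjusted p = 4.03e-14) and -0.07 ± 0.05 in M2 (edgeR, adjusted p = 0.214). Tnfrsf1a (ENSMUSG00000030341, chromosome 6, 125349362 to 125362484) had levels of 142, 136 and 140 in M0, of 387, 391 and 383 in M1 and of 171, 161 and 163 in M2. Here the states did not overlap, but the steps were small, at 1.48 ± 0.04 in M1 (edgeR, adjusted p = 5.45e-12) and 0.18 ± 0.04 in M2, which passed the p (edgeR, adjusted p = 0.00314) and not the fold. Within a library the ratio of Tnfrsf1b to Tnfrsf1a levels was 1.58 ± 0.05 (SD, n = 3) in M0, 5.83 ± 0.14 in M1 and 1.33 ± 0.04 in M2.

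**Figure D1:**
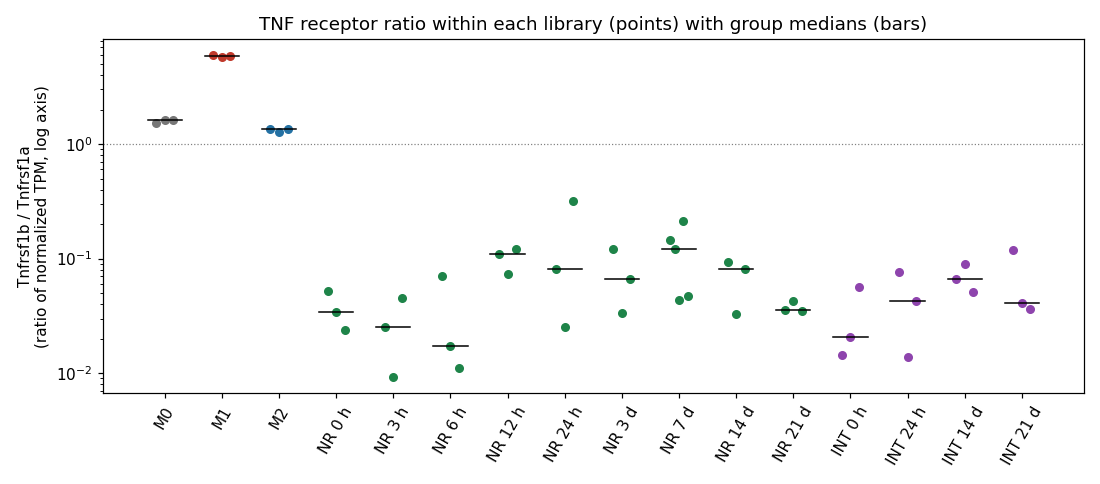
Ratio of the normalized TPM of Tnfrsf1b to that of Tnfrsf1a in each library (points, log axis) with group medians (bars) in M0, M1 and M2 macrophages and in non-regenerative (NR) and intermediate (INT) digits. The M1 libraries lie near 5.83, M0 and M2 between 1.28 and 1.61, and all 41 digits below 1.

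The shared p40 gene and the p35 and p19 genes sat at very different levels. Il12b (ENSMUSG00000004296, chromosome 11, 44400063 to 44414033) had 21, 16 and 17 expected counts in M0, 691, 430 and 728 in M1 and 3, 3 and 11 in M2. The groups were ordered M1, M0, M2 without overlap in normalized TPM. The log2 fold change was 5.93 ± 0.10 in M1 (edgeR, adjusted p = 1.13e-13) and -1.61 ± 0.46 in M2 (edgeR, adjusted p = 0.00807), the latter on few counts and not tested by limma, whose floor on low values it missed. In M2 against M0 Il12b passed the filter on low counts only through its M0 libraries, so that call is no support for a difference. Il12a (ENSMUSG00000027776, chromosome 3, 68690644 to 68698547) had 0, 1 and 0 counts in M0, 5, 5 and 7 in M1 and 2, 5 and 1 in M2. Il23a (ENSMUSG00000025383, chromosome 10, 128296139 to 128298752) had 4, 1 and 0 counts in M0, 8, 3 and 8 in M1 and 0, 1 and 4 in M2. Summed over libraries and scaled, the M1 to M0 ratio was 30.5 for Il12a (exact binomial 95% interval 4.77 to 1273) and 6.81 for Il23a (2.46 to 23.3), intervals that cover counting error only. Per length, the M1 level of Il12b was 42.6 ± 1.5 normalized TPM (SD, n = 3), that of Il12a 0.957 ± 0.609 and that of Il23a 0.596 ± 0.146. With no filter on low counts, edgeR called both Il12a and Il23a in M1, at adjusted p of 0.000394 and 0.00424.

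Il23r, which encodes the chain of the IL-23 receptor that is particular to IL-23, had the sharpest contrast. The gene (ENSMUSG00000049093, chromosome 6, 67422932 to 67491855) had 0 counts in each M0 library, 423, 294 and 484 in M1 and 2, 1 and 4 in M2. Against a floor of 3 counts per library the M1 level was at least 217-fold higher than in M0. The gene was tested only because of its M1 counts, so its p is not given. Its partner chain Il12rb1 stood at 3.37 ± 0.71 normalized TPM (SD, n = 3) in M0 and 49.8 ± 1.4 in M1, a log2 fold change of 4.18 ± 0.09 (edgeR, adjusted p = 5.97e-13). In M2 Il23r was too low for the filter, and with no filter on low counts edgeR called it higher than in M0 (adjusted p = 0.0373). Both chains of this receptor were thus higher in M1, where the p19 gene of its ligand held 19 counts over 3 libraries.

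Il27 (ENSMUSG00000044701, chromosome 7, 126589010 to 126594941) was higher in both treated states. It had 16, 11 and 15 counts in M0, 771, 501 and 709 in M1 and 94, 57 and 50 in M2, and no state overlapped with another. The log2 fold change was 6.40 ± 0.15 in M1 (edgeR, adjusted p = 1.10e-12) and 2.28 ± 0.29 in M2 (edgeR, adjusted p = 3.21e-05). Its partner Ebi3 rose in M1, by 2.29 ± 0.06 on the log2 scale (edgeR, adjusted p = 3.11e-12), and was lower in M2, at -1.83 ± 0.07 (edgeR, adjusted p = 2.78e-09). The 2 subunits of IL-27 therefore moved together in M1 and in opposite directions in M2. The Il27 gene overlaps Apobr on the other strand by 103 bases, and whether counting used strand is not given in the sources used here.

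Il10 (ENSMUSG00000016529, chromosome 1, 131019845 to 131024974) had normalized TPM of 4.56, 3.77 and 3.83 in M0, of 74.4, 77.6 and 69.2 in M1 and of 6.41, 3.38 and 4.62 in M2. The M1 libraries were all far above the rest, and M0 and M2 overlapped. The log2 fold change was 4.18 ± 0.09 in M1 (edgeR, adjusted p = 6.63e-13) and 0.18 ± 0.22 in M2 (edgeR, adjusted p = 0.479). The ratio of Tnf to Il10 levels within a library was 3.48 ± 0.34 (SD, n = 3) in M0, 4.54 ± 0.12 in M1 and 6.70 ± 1.65 in M2. Il10ra (ENSMUSG00000032089, chromosome 9, 45253837 to 45269149) moved in opposite directions in the treated states. Its levels were 111, 110 and 118 in M0, 245, 226 and 234 in M1 and 59.7, 49.8 and 50.6 in M2, with no overlap. The log2 fold change was 1.068 ± 0.05 in M1 (edgeR, adjusted p = 5.91e-10) and -1.14 ± 0.07 in M2 (edgeR, adjusted p = 7.51e-08). Il10rb, the shared second chain, stood at 297 ± 9 normalized TPM (SD, n = 3) in M0, 378 ± 12 in M1 and 253 ± 4 in M2. The Il10ra gene overlaps a pseudogene on the other strand by 236 bases and a microRNA gene on its own strand by 65 bases.

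**Figure D2:**
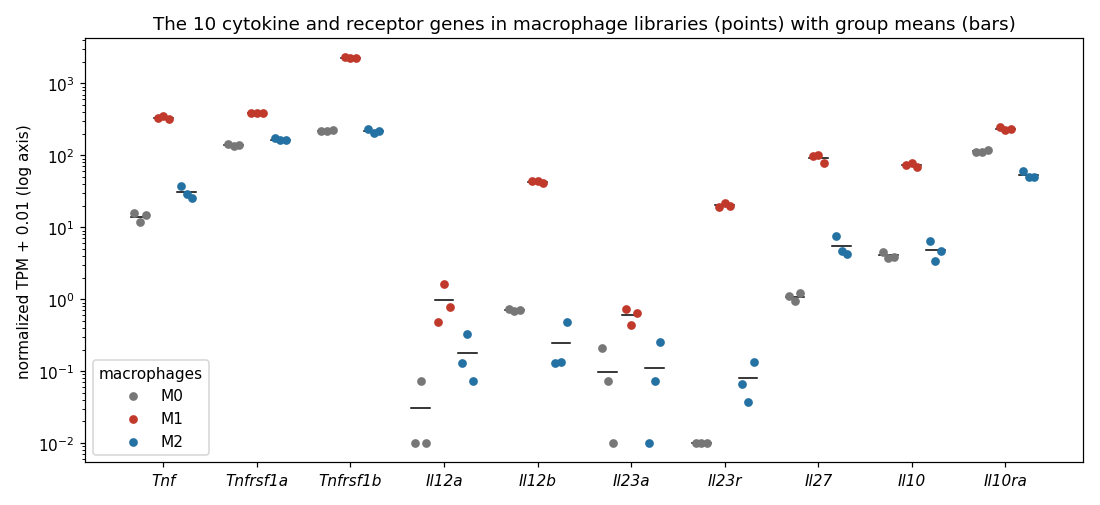
Normalized TPM plus 0.01 (log axis) of the 10 genes in each of the 9 macrophage libraries (points) with group means (bars). M1 points lie above all M0 and M2 points for every gene, and M2 lies below M0 without overlap for Il12b and Il10ra.

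In M2 macrophages 7 of the 10 genes were tested and 4 were called. Tnf and Il27 were higher, beside 11.0% of all genes tested, and Il12b and Il10ra were lower, beside 11.3%. Il12b was tested only through its M0 counts, so its call is no support for a difference. Compared directly, all 8 tested genes were higher in M1 than in M2, beside 20.1% called higher and 27.9% called lower among all genes. Il23r and Il12b were tested there only through their M1 counts, so their calls are no support for a difference. The log2 differences between M1 and M2 ran from 1.21 for Tnfrsf1a to 8.05 for Il23r. Scaling mattered for the 2 smallest M1 changes. M1 libraries carry TMM factors of 0.73 to 0.75 against 1.17 to 1.22 in M0, and with total counts alone, an alternative chosen after seeing the data, the median log2 change of all genes in M1 moved from -0.09 to -0.86. On that scale Tnfrsf1a (0.71) and Il10ra (0.29) stayed positive but fell under 2-fold, and the other 6 genes kept their call. Il10ra was also under 2-fold, at 0.98, with all macrophage libraries in 1 fit.

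**Figure D3:**
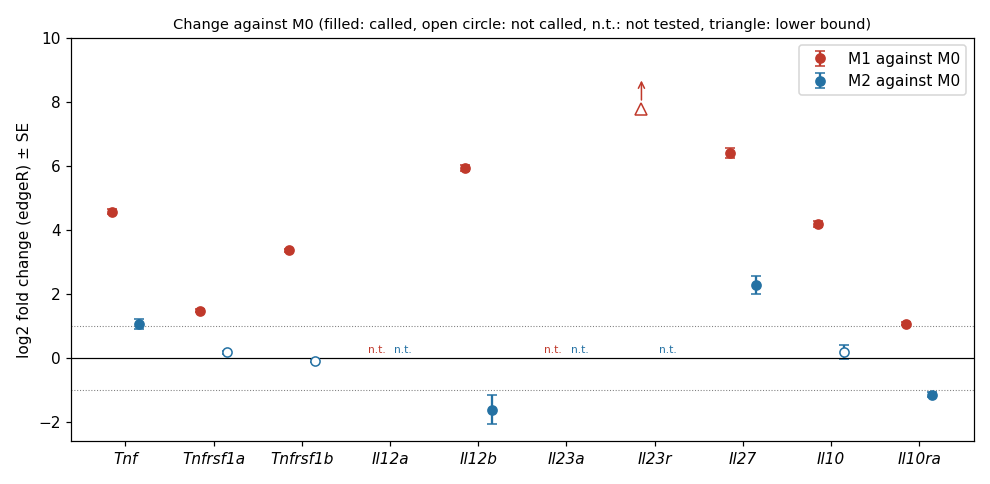
Log2 fold change from edgeR with its standard error for M1 (red) and M2 (blue) against M0. Filled points are called, open circles are not, and the triangle with an arrow marks the lower bound for Il23r, whose M0 libraries were all at 0. All 8 tested genes lie above 1 in M1, while in M2 Tnf and Il27 lie above 1 and Il12b and Il10ra below -1.

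The neighbours of these genes in their pathways were read from fixed lists. Of 9 partner subunits and receptors, 3 of the 9 tested were higher and 0 lower in M1 than in M0, beside 20.1% and 26.0% of all genes, with a median log2 change of 0.37 beside -0.09 over all genes. The gene tested in M1 but not in M2 against M0 passed the filter on low counts only with its M1 libraries. In M2, 3 of 8 were higher and 1 lower, beside 11.0% and 11.3%, among them the IL-27 receptor chain Il27ra at 3.44 ± 0.17 on the log2 scale (edgeR, adjusted p = 1.32e-08). Of 18 genes that act downstream of the TNF receptors, 7 were higher and 0 lower in M1, beside the same 20.1% and 26.0%, with a median of 0.77. The feedback inhibitors of NF-kB Tnfaip3 (log2 change 3.86 ± 0.06) and Nfkbia (3.69 ± 0.05) led this list, and in M2 Tnfaip3 alone was called, at 1.52 ± 0.07.

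Of 9 genes that control Tnf mRNA or the release of the protein, 4 were higher and 3 lower in M1, beside 20.1% and 26.0% of all genes. Zfp36, whose protein destabilises Tnf mRNA, rose by 3.84 ± 0.06 on the log2 scale, and Rhbdf2, a cofactor of the TNF-cutting protease, by 2.51 ± 0.05. Timp3, an inhibitor of that protease, and Zfp36l1, a relative of Zfp36, were lower in M1, at -1.45 ± 0.21 and -1.38 ± 0.04. Timp3 was higher in M2, at 1.80 ± 0.20. Of 9 genes of IL-12 and IL-23 signalling and output, 5 of the 5 tested were higher in M1, beside 20.1%. Only 3 of the list were tested in M2 against M0. The rest of these 5 thus passed the filter on low counts only with their M1 libraries, and their calls are no support for a difference. Jak2, a kinase used by both receptors, rose by 2.91 ± 0.05 and Stat4, the main IL-12 responsive factor, by 2.19 ± 0.12. Of 10 genes of IL-10 receptor signalling and its targets, 8 were higher and 0 lower in M1, beside 20.1% and 26.0%, with a median of 2.44, including Il1rn at 6.94 ± 0.11 and Socs3 at 5.96 ± 0.07. In M2, 3 of these 10 were higher beside 11.0% of all genes, Nfil3 the most at 2.43 ± 0.07.

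In digits the set divided into 2 kinds. Tnfrsf1a, Tnfrsf1b and Il10ra were above 0 in all 41 digits and Tnf in 26. The other 6 genes were at or near 0 in most digits at this depth. Tnfrsf1a was the most abundant of the set throughout, and its level exceeded that of Tnfrsf1b in every digit, in contrast to every macrophage library. The medians of the ratio of Tnfrsf1b to Tnfrsf1a ran from 0.0172 at 6 hours to 0.121 at 7 days in non-regenerative digits. The macrophage and digit tables were scaled separately, so levels are not compared between them, and the ratio is taken within a library.

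The calls in digits came at 12 hours in the non-regenerative group, whose digits are labelled 64%, 64% and 67%. Tnf had 0 counts in all 3 digits at 0 hours and 32, 33 and 29 counts at 12 hours, or 6.71, 4.44 and 5.87 normalized TPM. Every 12-hour digit was thus above every 0-hour digit. Against a floor of 3 counts per digit, the 12-hour level was at least 10.1-fold higher. It was called by edgeR (adjusted p = 0.00466), but Tnf passed the filter on low counts only through the 12-hour digits, so the call is no support for a difference. Tnfrsf1b had 4.95, 3.83 and 2.96 normalized TPM at 0 hours and 15.7, 10.7 and 19.4 at 12 hours, with a log2 fold change of 2.25 ± 0.34 (edgeR, adjusted p = 0.00533). Il10ra had 2.68, 2.27 and 3.26 normalized TPM at 0 hours and 13.6, 6.25 and 10.9 at 12 hours, with a log2 fold change of 2.04 ± 0.38 (edgeR, adjusted p = 0.0107). Neither gene overlapped between the times. Tnfrsf1a, at 94.6, 112 and 123 and then 143, 147 and 159 normalized TPM, did not overlap but was not called, at 0.52 ± 0.18 (edgeR, adjusted p = 0.0737). The share of all genes without overlap is not given for this or any other comparison. A lack of overlap is thus not read as particular to the set. At 12 hours 4589 of all 13075 genes tested had an unadjusted p under 0.05 in edgeR. Leaving Tnf aside, 2 of the 3 tested genes were called, beside 11.4% of all genes tested.

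Several measures moved together with these calls. The summed level of 7 neutrophil markers was 20.4 to 27.7 normalized TPM at 0 hours and 408 to 1138 at 12 hours, with Ly6g at 0 in all 3 digits at 12 hours. Of these markers 6 of the 6 tested were called higher, beside 11.4% of all genes called in either direction. Only 3 of the 7 were tested on day 21 against the same 0-hour digits. The others passed the filter on low counts only through the 12-hour digits, so their calls are no support for a difference. The sum of 7 macrophage markers was 125 to 243 at 0 hours and 176 to 259 at 12 hours, with 1 of 7 markers called higher, beside the same 11.4%. The part of either in the changes of Tnf, Tnfrsf1b and Il10ra was not tested. All 12-hour digits and 1 of the 0-hour digits were of the earlier date period. That 0-hour digit had 0 for Tnf, 4.95 for Tnfrsf1b and 2.68 for Il10ra, below each 12-hour digit. When all digits shared 1 fit, the 3 calls were lost, at edgeR adjusted p of 0.0518 for Tnf, 0.0898 for Tnfrsf1b and 0.0637 for Il10ra, and with the period as a term these were 0.117, 0.22 and 0.242. In 6 fits that each left out 1 of the 6 digits the calls held, with edgeR adjusted p of at most 0.0494.

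At the other times no gene of the set was called in non-regenerative digits against 0 hours by edgeR. The share of all genes called was 4.85% at 6 hours and 10.7% at 24 hours. On days 3, 7 and 21 it was 0.723%, 0.0537% and 0.452%, and it was 0 at 3 hours and on day 14. At 24 hours Tnf counts were 23, 8 and 54, the highest count of any digit among them, against 0 at 0 hours, and the gene did not pass the filter there. Tnfrsf1b at 24 hours had 10.4, 4.18 and 35.6 normalized TPM, a log2 fold change of 1.78 ± 0.52 (edgeR, adjusted p = 0.0509). The digit of the later date period, replicate 2, was the lowest for Tnf, Tnfrsf1b and Il10ra, and without it edgeR called all 3 genes at 24 hours, at adjusted p of 0.023, 0.0162 and 0.0385. Without replicate 1 at 0 hours it called Tnf and Tnfrsf1b there, at 0.0242 and 0.0346. In both fits Tnf passed the filter on low counts only through the 24-hour digits, so its calls are no support for a difference. DESeq2 called Tnfrsf1b at 24 hours and 14 days and Il10ra at 3 days, at adjusted p of 0.00457, 0.0274 and 0.0388. The shares of all genes called by DESeq2 and in the fits without a digit are not given here. These calls are thus not read as particular to the set. At an unadjusted p under 0.05, edgeR found 1 of the 3 tested genes in 4 of these comparisons (6 and 24 hours, days 7 and 14). It found 2 on day 3 and 0 in the remaining comparisons. Of all genes tested, 3368 of 13168 had such a p at 6 hours, 4420 of 13420 at 24 hours and 1477 of 13286 on day 3. On days 7 and 14 they numbered 566 of 13046 and 1044 of 13567.

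**Figure D4:**
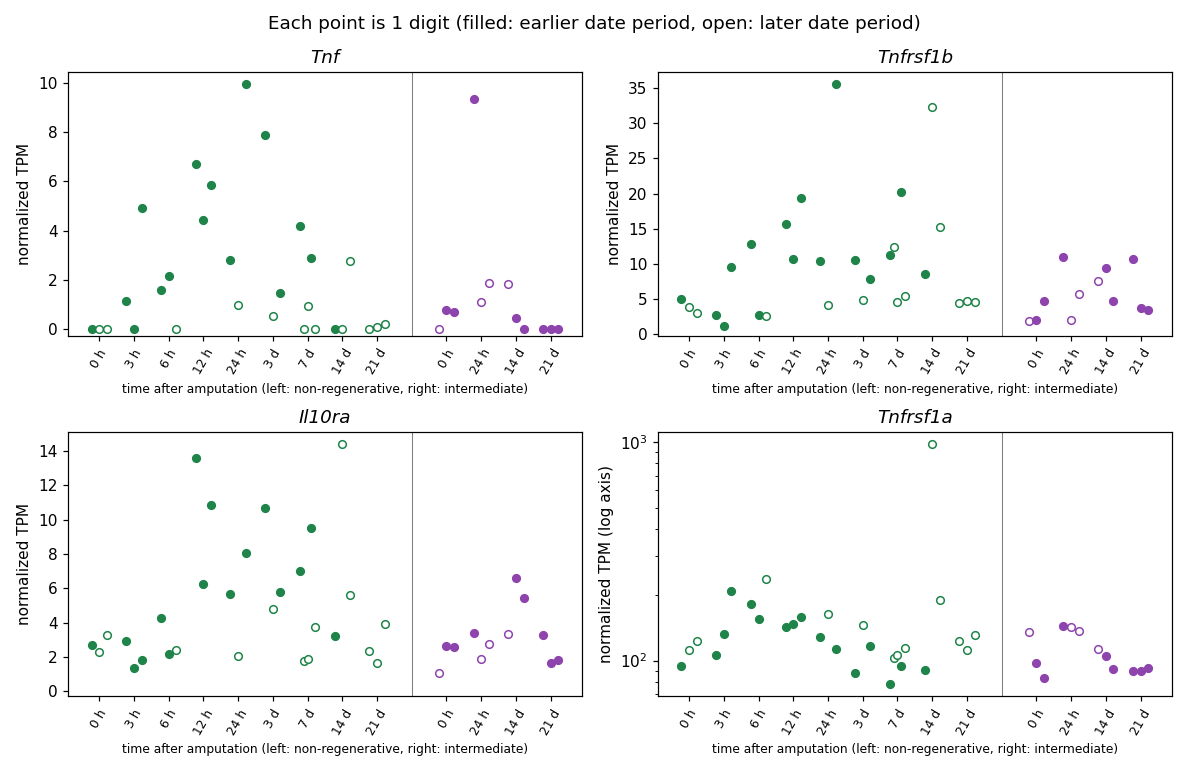
Normalized TPM of Tnf, Tnfrsf1b, Il10ra and Tnfrsf1a (log axis for Tnfrsf1a) in each of the 41 digits by time after amputation, non-regenerative on the left in green and intermediate on the right in purple. Filled points are of the earlier and open points of the later date period. The 12-hour digits lie above the 0-hour digits for Tnf, Tnfrsf1b and Il10ra, and 1 digit at 14 days has a Tnfrsf1a level of 977.

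Over the whole time course of 29 non-regenerative digits, edgeR called 0 of the 4 genes tested, beside 7.62% of all genes. The adjusted p was 0.0738 for Tnfrsf1a, 0.113 for Il10ra, 0.153 for Tnf and 0.158 for Tnfrsf1b, and all 4 had an unadjusted p under 0.05. The share of all genes under that unadjusted limit is not given here. DESeq2 called all 4, at adjusted p between 0.000167 for Tnfrsf1a and 0.0269 for Tnf. The share of all genes that DESeq2 called over time is not given here. Its calls are thus not read as particular to the set. At 14 days replicate 2, the digit that stands apart, had 977 normalized TPM of Tnfrsf1a beside 90.9 and 189 in the other two, and 32.3 of Tnfrsf1b beside 8.53 and 15.2. By 21 days Tnf was at 0, 1 and 2 counts and Tnfrsf1b at 4.39, 4.74 and 4.59 normalized TPM, near the 0-hour values.

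The intermediate digits, in which less of the bone was removed, were measured at fewer times. Tnf had 0, 5 and 3 counts at 0 hours and 52, 6 and 20 at 24 hours. On day 14 the counts were 16, 3 and 0, and on day 21 all 3 digits had 0. The 24-hour digits were all above the 0-hour digits. Tnfrsf1b had 1.94, 2.002 and 4.71 normalized TPM at 0 hours and 10.99, 1.96 and 5.76 at 24 hours, which overlap. Il10ra had 1.085, 2.65 and 2.58 at 0 hours and 3.33, 6.60 and 5.44 at 14 days, which do not overlap, with a log2 fold change of 1.26 ± 0.45 (edgeR, adjusted p = 0.274). Neither edgeR nor DESeq2 called any gene of the set against 0 hours, beside 0.0152% of all genes at 24 hours and, on days 14 and 21, 1.68% and 1.39% in edgeR. At an unadjusted p under 0.05, edgeR found 1 of the 3 tested genes at 24 hours, 2 on day 14 and 0 on day 21. Of all genes tested, 2034 of 13172, 1790 of 13334 and 2212 of 13360 had such a p at these times. Over time in the intermediate group edgeR called 0 of 4 genes, beside 6.21% of all genes, with adjusted p from 0.0923 for Tnf to 0.334 for Tnfrsf1b. DESeq2 called Tnf and Tnfrsf1a, and its share of all genes is not given here.

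Between the groups at the same time, no gene of the set was called by edgeR or DESeq2. The share of all genes called was 0.648% on day 21 and 0 at the 3 earlier times. The largest gap relative to its error was in Tnfrsf1a at 21 days, with 123, 112 and 130 normalized TPM in non-regenerative and 89.2, 90.1 and 92.4 in intermediate digits. These do not overlap, and the log2 difference was -0.51 ± 0.12 (edgeR, adjusted p = 0.117), the only unadjusted p under 0.05 of the set between groups. Of all genes tested at 21 days, 1927 of 13736 had such a p. At 21 days all non-regenerative digits were of the later and all intermediate digits of the earlier date period, so group and period cannot be told apart there. At 24 hours Tnf had 2.81, 0.977 and 9.96 normalized TPM in non-regenerative and 9.37, 1.109 and 1.88 in intermediate digits, a log2 difference of -0.17 ± 0.97 (edgeR, adjusted p = 0.955). The test of a group by time difference called 0 of 4 genes and 0 of all genes, with adjusted p from 0.66 for Tnfrsf1a to 0.942 for Il10ra, and 0 of the 4 had an unadjusted p under 0.05.

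The date period was associated with the level of Tnfrsf1a. Over all 41 digits, with group and time as terms, a fit added after seeing the data gave a log2 difference of later minus earlier of 0.52 ± 0.16 for Tnfrsf1a (edgeR, adjusted p = 0.0327), beside 8.23% of all genes called. The values for the other genes were -2.10 ± 0.91 for Tnf, -0.83 ± 0.32 for Tnfrsf1b and -0.75 ± 0.28 for Il10ra, none of them called (edgeR, adjusted p = 0.162, 0.099 and 0.0946). The macrophage markers Cd68 (-1.28 ± 0.23) and Lyz2 (-1.41 ± 0.26) were lower in the later period as well. Whether the period marks a batch of surgery, harvest or library is not given in the sources used here.

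The low genes of the set left few counts in digits. Il10 was above 3 counts in 4 of 41 digits, with 0, 5 and 19 counts at 3 hours (0, 2.42 and 14.9 normalized TPM), 7 in 1 intermediate digit at 0 hours and 5 in 1 non-regenerative digit at 14 days. The 3-hour digits included the one with the fewest total counts, and the 3 digits disagree with each other. Il23r reached 37 counts in 1 digit at 7 days and 22, 15 and 5 counts at 21 days in non-regenerative digits, against 1, 3 and 1 at 0 hours. Il23a had 0, 5 and 6 counts at 12 hours and 10, 6 and 0 at 24 hours, against 0, 2 and 0 at 0 hours. Il27 exceeded 3 counts in 1 digit, and Il12a and Il12b in 2 digits each. Il12b reached at most 7 counts in a digit.

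**Figure D5:**
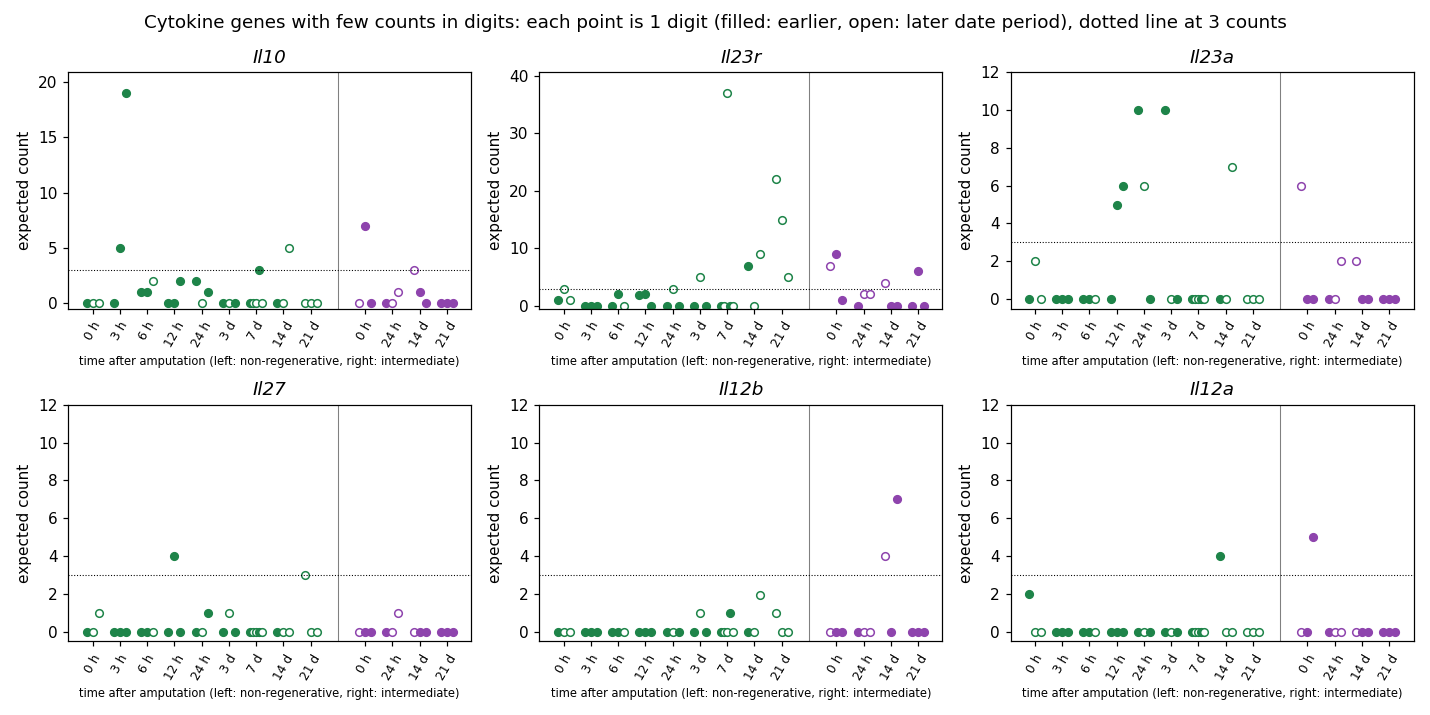
Expected counts of Il10, Il23r, Il23a, Il27, Il12b and Il12a in each of the 41 digits by time after amputation (non-regenerative left, intermediate right, filled for the earlier and open for the later date period). The dotted line marks 3 counts. Most points are at 0, and the highest are 37 counts of Il23r at 7 days and 19 of Il10 at 3 hours.

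Across the 41 digits, which share time, group and depth, the levels of Tnfrsf1b and Il10ra ran together (Spearman's rho 0.73), and Tnf ran with the neutrophil marker sum (0.64) more than with the macrophage marker sum (0.14). Tnfrsf1b and Il10ra had rho of 0.57 and 0.58 with the macrophage sum and of 0.55 and 0.40 with the neutrophil sum. Tnfrsf1a ran with none of Tnf (0.24), Tnfrsf1b (0.06) or Il10ra (0.06) closely. Of 13691 genes with a mean of at least 1 normalized TPM, the ones most like Tnf over the digits were the leukocyte surface gene Cd53 (0.85) and the chemokine gene Ccl2 (0.82). For Tnfrsf1b they were the integrin chain Itgb2 (0.82) and Cyth4 (0.79), for Il10ra Cd52 (0.84) and Dok3 (0.79), for Tnfrsf1a Phlda1 (0.81) and Mrpl17 (0.80), and for Il23r Rab30 (0.60) and Ly6g6d (0.59). These are descriptions over digits that share their conditions.

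The pathway lists were read in digits as well. Of the 10 genes of IL-10 receptor signalling and its targets, 5, 7 and 5 were higher at 6, 12 and 24 hours and 0 lower, beside 4.85%, 11.4% and 10.7% of all genes called in either direction, with medians of 1.31, 1.68 and 1.43 on the log2 scale beside -0.03, -0.03 and -0.04 over all genes. The neutrophil marker sum was 188 to 252 normalized TPM at 6 hours, 408 to 1138 at 12 hours and 1134 to 1299 at 24 hours, against 20.4 to 27.7 at 0 hours, and its part in these counts was not tested. Over time 5 of 10 were called in intermediate digits, beside 6.21%, and 5 of 10 in non-regenerative digits, beside 7.62%, led there by Il4ra (edgeR, adjusted p = 5.36e-05) and Bcl3 (edgeR, adjusted p = 7.57e-05). Bcl3, a nuclear IkB protein, stood at 6.96 ± 1.080 normalized TPM (SD, n = 3) at 0 hours and 72.3 ± 3.3 at 12 hours, when Il10 itself had 0, 0 and 2 counts. Of the 18 genes downstream of the TNF receptors, 2 were called higher at 12 hours, beside 11.4% of all genes, and 0 at 6 and 24 hours. Of the genes that control Tnf mRNA or release, 0 were called at 12 hours and Zfp36 was called over time (edgeR, adjusted p = 0.0348). Zfp36 stood at 133 ± 78 normalized TPM (SD, n = 3) at 0 hours, 96.2 ± 12.02 at 12 hours and 51.6 ± 9.2 on day 3.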

How the data were processed

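Single-end RNA-seq libraries of 9 macrophage cultures and 41 digits were analysed. The authors mapped reads with Bowtie to mouse genes of GRCm38 (mm10) and deposited RSEM 1.2.3 output as one expected count per gene, not normalized. They also deposited a signal called normalized TPM, which is TPM scaled by median-by-ratio within the macrophage or the digit table. For digits, 26 gene names turned into dates were restored from transcript identifiers.

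After rounding, any 2 groups compared were fitted on their own with edgeR 4.0.16 (R 4.3.3), using filterByExpr, TMM and the quasi-likelihood test. Time, group by time and date period were tested over all digits concerned. A call required an adjusted p under 0.05 (Benjamini-Hochberg over all genes tested) and means of normalized counts, each with 1 added, that differed by over 2-fold. For time and period the adjusted p sufficed. The study used EBSeq, which was not used here. Bounds against 0 use 3 counts in the smallest library. Alternatives were DESeq2 1.42.0, other scalings, no filter, limma 3.58.1 on log2(normalized TPM + 1) or + 0.1, shared fits and each replicate left out. Scripts were tested on simulated data. Replicates differed by more than counting error (chi-square per degree of freedom 3.05 to 411, 55 pairs).

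The genes and pathway lists were chosen with earlier results of these data known. From each list up to 2 called genes per direction in M1 and 1 in M2 with a mean count of at least 100 are named, and the 2 with the smallest p over time. Likeness used genes above 0 in at least 21 digits. Macrophage libraries that share a number did not deviate together (r from -0.07 to 0.07 over 9 pairs, and from -0.06 to 0.11 over 18 others). Gene positions are from GENCODE on GRCm38 and promoters from RefSeq.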

Additional observations from a re-analysis of the deposited data

Results flagged for a closer look

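Among the non-regenerative digits at 7 days, the only group of more than 3, a single digit stood apart from the other 4 for 3 of the genes. Il23r was at 3.26 normalized TPM in replicate 3 and at 0 in the others. Il10 was at 0.837 and Il12b at 0.194 in replicate 4, and both were at 0 in the others. The Il10 and Il12b values are 3 counts and 1 count. Chance flags about 1 in 20 groups, and a group in which all digits but 1 are at 0 is always flagged.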

How the results depend on the processing

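The counts of genes called in macrophages held within 1.5 times: 6 to 10 in M1 against M0, 3 to 5 in M2 against M0 and 7 to 10 in M1 against M2. The main counts include Il23r in M1 against M0, Il12b in M2 against M0 and both in M1 against M2. Each passed the filter on low counts only through the group where it is high, so these calls are no support for a difference. The share of all genes called is not given for the alternatives. With a replicate block the counts were 8, 4 and 8, as without it, and the block changed no call there. Leaving out 1 library gave 8 to 8, 3 to 4 and 8 to 8. In non-regenerative digits against 0 hours, 3 calls became 6 with DESeq2, 5 with no filter on low counts and 1 with all digits in 1 fit (Tnfrsf1a at 14 days, where replicate 2 stands apart), and ran from 3 to 6 when 1 digit was left out, 5 without replicate 1 at 0 hours and 6 without replicate 2 at 24 hours. The 3 calls, and those without either of these replicates, include Tnf, which passed the filter only through digits after 0 hours. Over time in these digits, 0 calls became 4 with DESeq2, 1 with RLE scaling (Tnfrsf1a), 1 with no filter (Il10), 1 with the period as a term (Tnfrsf1a) and 0 to 3 when 1 digit was left out, the most without replicate 3 at 14 days. Over time in intermediate digits, 0 became 2 with DESeq2 and 0 to 1 when 1 digit was left out. Calls between groups and of a group by time difference were 0 in every alternative. The change of Il10 in M2, 0.18 on the log2 scale, ran from -0.10 without M2 replicate 1 to 0.38 without M2 replicate 2. The cause was not tested. Of 388 settings for single genes, 374 kept their direction and side of the threshold.

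Depth limits the low genes most, since digits have fewer counts than macrophages. In digits Il12a, Il12b, Il23a, Il27, Il10 and Il23r were too low for the filter in every comparison of the main analysis. At 3 and 12 hours and on day 21 the digits of a group share 1 date period. Time can be told apart from period there only against 0-hour digits of the same group and period. These were 1 earlier digit for 3 and 12 hours. For day 21 they were 2 later digits in the non-regenerative group and 2 earlier digits in the intermediate group. Between the groups on day 21, group and period cannot be told apart.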

Other observations

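Il24 and Il19, IL-10 family cytokines that signal to epithelium, were detected in digits. Both pass the filter on low counts only through the times at which they are high. Il24 was at 0 in all 3 non-regenerative digits at 0 hours, at 29.2 ± 45.3 normalized TPM at 3 hours (from 0 to 81.4) and at 63.4 ± 20.5 normalized TPM (SD, n = 3) at 6 hours, 55.5 ± 13.4 at 12 hours, 41.8 ± 18.4 at 24 hours and 3.38 ± 4.54 at 3 days. Il19 was at 0 in the 0-hour digits, at 34.3 ± 21.4 at 6 hours, 24.4 ± 1.6 at 12 hours and 22.8 ± 10.1 at 24 hours. It was at 0 in all digits at 3 hours and on day 3, while 1 digit had 23.0 on day 7 and 1 had 6.54 on day 14. In intermediate digits at 24 hours Il24 stood at 17.6 ± 25.01 and Il19 at 4.47 ± 4.39. In macrophages Il24 stood at 0.193 ± 0.021 normalized TPM and Il19 at 0.907 ± 0.267 in M1.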
